A study of Mus musculus with 6 samples.

Results

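In the mammalian gonad the granulosa cells of the ovary and the Sertoli cells of the testis arise from a common progenitor, and the transcription factor FOXL2 keeps the granulosa fate while SOX9 and DMRT1 keep the Sertoli fate. Loss of Foxl2 from adult mouse granulosa cells is known to allow Sertoli genes to be expressed in the ovary, and follicle-stimulating hormone acts on both cell types through the receptor encoded by Fshr. Foxl2 and 9 genes known from Sertoli cells were therefore followed in ovaries with and without that receptor: Sox9, Dmrt1, Nxf3, Defb19, Defb36, Rhox5, Rhox8, Cst9 and Clu. The name Sertoli-type stands here for a known site of expression in the testis and not for a cell identified in these ovaries.

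The study measured RNA of whole ovaries from 8-month-old females. Mice labelled FORKO, in which all variants of the FSH receptor were deleted, were compared with wild-type (WT) mice, both bred from heterozygotes on the 129T2 svEmsJ background, and both ovaries were pooled before extraction. There were 3 samples of either genotype, each on 1 Affymetrix Mouse Genome 430 2.0 array. The deletion is not restricted to a cell type in the labels, and free-text fields of the FORKO samples speak of wild-type mice, so groups follow the titles and the genotype field.

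A probe set, the group of short probes that reads 1 transcript, was taken for a gene where the platform annotation gave that gene's symbol and no other. This found 14 probe sets for 8 of the 10 genes, among 18193 genes named in this way; Defb36 and Rhox8 have no such probe set and are not analysed here. Where a gene had several, the one that stood for it was chosen by its mean signal over all 6 arrays, the highest being taken. That mean was 768 for Foxl2, 2654 for Clu, 490 for Defb19, 162 for Nxf3, 50.3 for Rhox5, 15.5 for Cst9, 12.7 for Sox9 and 10.5 for Dmrt1. The last 3 of these genes lay below the filter on dim probe sets, a mean scaled signal of 20.4, so that 5 of the 8 entered the test, which covered 11199 genes and 22506 probe sets. Values are signals after scaling, with SD over 3 arrays (n = 3) where a mean is given. A log2 change subtracts the WT mean from the FORKO mean of log2(signal + 5.73); the added constant shrinks the changes of dim genes. An adjusted p is that of limma over all probe sets tested. The 10 genes were chosen with the FORKO and WT signals of this comparison known, so each change and its p describe where a gene stands in the fit and are no independent evidence.

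The promoters of the Foxl2 and Rhox5 genes are shown for reference, since Foxl2 is the gene the others are set against and Rhox5 is a Sertoli-type gene of the homeobox family that the ovary also expresses. Of the 10 genes, 4 (Foxl2, Rhox5, Cst9 and Defb36) matched RefSeq's promoter table of GRCm38.p6, in which each window of 300 bases holds 250 before and 50 after the start site. Both windows lie on the plus strand, at chr9:98955357-98955656 for Foxl2 and chrX:37754358-37754657 for Rhox5, and run 5′ to 3′ below, with capitals where a searched motif matched.
Foxl2: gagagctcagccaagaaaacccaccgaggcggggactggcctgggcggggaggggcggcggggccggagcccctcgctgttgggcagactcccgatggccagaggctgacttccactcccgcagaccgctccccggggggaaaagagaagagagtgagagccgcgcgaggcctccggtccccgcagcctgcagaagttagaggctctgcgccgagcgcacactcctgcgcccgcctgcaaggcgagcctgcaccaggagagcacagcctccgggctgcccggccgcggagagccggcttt
Rhox5: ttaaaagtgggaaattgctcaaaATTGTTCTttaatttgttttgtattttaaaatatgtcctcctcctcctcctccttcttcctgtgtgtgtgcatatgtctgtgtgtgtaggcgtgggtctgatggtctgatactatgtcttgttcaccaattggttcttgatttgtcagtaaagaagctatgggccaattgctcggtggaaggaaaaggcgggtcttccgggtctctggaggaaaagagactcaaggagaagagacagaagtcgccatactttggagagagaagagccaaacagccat
Both strands were searched for 4 short motifs. AACAAT is the core sequence that SOX proteins are known to bind, and it occurs in 10.7% of all 32851 promoters of that length. AGAACA, a half-site of the androgen receptor, occurs in 19.0% of those promoters. The Rhox5 window held the SOX core at bases 24 to 29 and the androgen receptor half-site at bases 26 to 31, both on the minus strand and overlapping each other. The Foxl2 window, 71.3% G and C against a median of 52.7%, held none of the 4 motifs, which says only that these letters are not in it. Among all promoters the core of forkhead proteins, TGTTTAC, is found in 3.65%. A motif of GATA factors, searched as AGATAA, is found in 11.2% of them.

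The deleted gene checked the labels. Fshr read 99.6, 59.4 and 118.8 in WT replicates 1, 2 and 3 and 1.2, 11.2 and 11.7 in the FORKO replicates of the same numbers, so that every FORKO array lay below every WT array (log2 change -2.90; limma adjusted p = 0.0102). Its call was lost without WT replicate 1 or 3, where the limma adjusted p was at most 0.0598, and held in the other 4 fits with 1 array left out. Whether its probe set lies inside the deleted part is not known here. FORKO replicate 1 stood apart from the other FORKO arrays, with a correlation of log2 signals across tested probe sets of 0.934 and 0.936 with replicates 2 and 3, against 0.976 between those. The median of 9 tested granulosa markers was -3.03 in that array relative to the WT mean on the log2 scale, against 0.37 and 0.30 in the other FORKO arrays. The markers did not all go one way there, as Inhba read 54.2 against 2046.1 to 4332.0 in WT and Kitl 1494.1 against 729.5 to 804.0; both were named after their values were seen.

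Nxf3 and Defb19 rose in FORKO ovaries, whereas Foxl2, Rhox5 and Clu did not pass the test, and Sox9, Dmrt1 and Cst9 had mean signals below the dim filter. In this comparison 2.14% of the 11199 genes passed, 1.30% of them higher and 0.839% lower in FORKO, so that 2 of the 5 tested genes of the list compare with that background; no inference follows from this share, because the list was assembled with results in view. The groups did not overlap for Foxl2, Nxf3 and Defb19 of the 5, against 22.6% of all genes tested. In whole ovaries, a change in the number of cells of a type and a change in RNA per cell cannot be told apart.

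**Figure D1:**
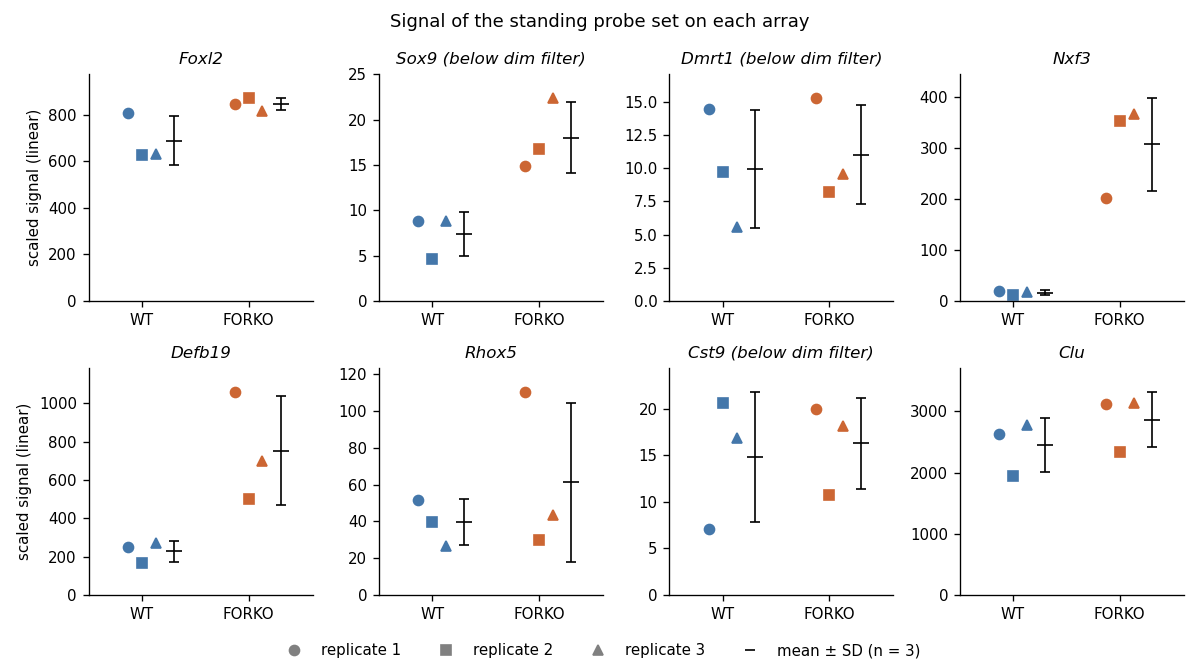
Scaled signal (linear axis from 0, a scale of its own for each gene) of the standing probe set of 8 genes on 3 WT and 3 FORKO arrays; symbols mark the replicate number and bars the mean ± SD (n = 3). Nxf3 lies at 11.2 to 19.7 in WT and 203.3 to 367.3 in FORKO, Foxl2 at 625.9 to 809.8 and 819.2 to 872.0, and Sox9, Dmrt1 and Cst9 read at most 22.4 on any array.

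Foxl2 was expressed in all ovaries of both groups. Its signals were 809.8, 625.9 and 630.6 in WT replicates 1, 2 and 3 and 849.5, 872.0 and 819.2 in the FORKO replicates of the same numbers. All FORKO arrays lay above all WT arrays, but WT replicate 1 came within 9.4 units of the lowest of them. The mean was 689 ± 105 in WT and 847 ± 26.5 in FORKO, a log2 change of 0.31 ± 0.15 (SE; limma adjusted p = 0.403). The 95% interval of the change, -0.04 to 0.65, runs from 0.974-fold to 1.57-fold, for RNA of the whole ovary under the main normalization. The change was between 0.23 and 0.34 under the other normalizations and between 0.24 and 0.43 with any 1 array left out. A further Foxl2 probe set was dim, with 1.5 to 9.8 in WT and 2.2 to 9.3 in FORKO, and it was not tested.

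The drivers of the Sertoli fate were dim. Sox9, which encodes the transcription factor that starts Sertoli differentiation, has 3 probe sets. The standing one read 8.8, 4.6 and 8.8 in WT replicates 1, 2 and 3 and 14.9, 16.8 and 22.4 in the FORKO replicates of the same numbers. The FORKO arrays were all higher on this probe set, at 18.0 ± 3.91 against 7.39 ± 2.43 (log2 change 0.86), and 1 array, FORKO replicate 3, exceeded the filter level of 20.4. When probe sets of any signal were tested, it did not pass (limma adjusted p = 0.333, unadjusted p = 0.0183). The other two Sox9 probe sets did not share the pattern: one read 6.3 to 10.5 in WT and 15.2, 12.5 and 3.9 on the FORKO arrays, and the other read 3.4 to 14.9 in WT and 16.0, 2.4 and 1.6 in FORKO. Their log2 changes were 0.17 and -0.46, and in both the groups overlapped.

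Dmrt1, whose product holds Sertoli cells in the male fate after birth, read 14.5, 9.7 and 5.6 in WT replicates 1, 2 and 3 and 15.3, 8.2 and 9.6 in the FORKO replicates of the same numbers. The groups overlapped, with a log2 change of 0.12 and a 95% interval of -0.63 to 0.86 when all probe sets were tested (limma adjusted p = 0.940). Replicate 1 was the highest array in both groups. Among 7 other Dmrt family genes, which share the DM DNA-binding domain, Dmrta1 was the 1 above the filter and it rose, from 27.9 ± 11.6 to 108 ± 26.1 (log2 change 1.78 ± 0.28, SE; limma adjusted p = 0.0161). Dmrta1 read 41.1, 19.5 and 23.1 in WT and 81.9, 107.8 and 134.1 in FORKO, with no overlap. It passed in 3 of the 6 fits with 1 array left out.

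Nxf3 showed the largest change of the list. The gene lies on the X chromosome and encodes a member of the nuclear RNA export factor family that is known from Sertoli cells. It read 19.7, 11.2 and 18.0 in WT replicates 1, 2 and 3, all below the filter level, and 203.3, 353.6 and 367.3 in the FORKO replicates of the same numbers. The lowest FORKO array was 10.3 times the highest WT array, and it was replicate 1. The change on the log2 scale was 3.81 ± 0.27 (SE; limma adjusted p = 8.84e-04), the rank 7 rise among 11199 genes tested. Nxf3 came over the dim filter only through its FORKO arrays, so its p and rank are a description; in the fit of probe sets of any signal its limma adjusted p was 0.00144. It passed in all 6 fits with 1 array left out, with changes of 3.63 to 4.08. Its size depended on the pseudocount, 4.15 with 1 and 3.29 with 16, because the WT signals are dim.

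No tested gene of the family or the neighbourhood of Nxf3 passed, where 2.14% of all genes tested did. At that share, 0 calls among so few genes says little about them. Of 5 genes of the Nxf and Nxt families, which encode export receptors and their cofactors, 3 were tested and none passed limma's test; Nxf1, the general mRNA export receptor, read 340.3, 320.6 and 351.1 in WT and 349.4, 309.2 and 339.5 in FORKO. The cofactor genes Nxt1 and Nxt2 changed by 0.03 and -0.13 on the log2 scale, with 95% intervals of -0.72 to 0.78 and -0.66 to 0.40. Of the 10 protein-coding genes nearest to Nxf3 in GRCm38.p6, 5 on each side, 6 were tested, among them Bex1, Bex2, Bex4 and Tceal8. Their log2 changes lay between -0.15 and 0.50 and 0 passed. Neighbours were examined after the values of Nxf3 and Defb19 had been seen.

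Defb19, a β-defensin gene expressed in Sertoli cells of the developing testis, rose as well. It read 248.6, 166.0 and 269.4 in WT replicates 1, 2 and 3 and 1059.5, 498.6 and 696.8 in the FORKO replicates of the same numbers. The lowest FORKO array was above the highest WT array, and unlike Nxf3 the highest FORKO value was that of replicate 1. Its change on the log2 scale was 1.66 ± 0.28 (SE; limma adjusted p = 0.0220), a ratio of means of 3.30 and the rank 93 rise among the genes tested. The call was lost in 4 of the 6 fits with 1 array left out: the limma adjusted p was 0.0764, 0.107 and 0.0668 without WT replicates 1, 2 and 3 and 0.0676 without FORKO replicate 3, with changes of 1.45 to 1.79. Without FORKO replicate 1 the change was 1.38 and without FORKO replicate 2 it was 1.92, and both passed (limma adjusted p = 0.00431 and 0.0174).

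Other β-defensin genes were dim. All 19 with a probe set lay below the filter, and their summed signal ranged from 61.2 to 96.6 in WT and from 81.4 to 97.6 in FORKO. They include the neighbours of Defb19 on chromosome 2: Defb21 read 0.8 to 7.8 in WT and 1.0 to 4.9 in FORKO, Defb29 0.9 to 1.6 and 0.6 to 0.8, and Defb45 1.0 to 19.5 and 3.6 to 18.2. Defb36 lies on the far side of Defb45 from Defb19, and it is known to share Defb19's site of expression in the testis. The nearest tested gene on that side, H13, read 179.4 to 296.0 in WT and 187.8 to 301.4 in FORKO.

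Rhox5, an X-linked homeobox gene that androgen induces in Sertoli cells and that granulosa cells also express, differed between arrays more than between groups. It read 51.8, 39.7 and 26.8 in WT replicates 1, 2 and 3 and 110.4, 29.7 and 43.5 in the FORKO replicates of the same numbers. A single array, FORKO replicate 1, lay above the WT range. On the log2 scale it differed by 0.42 ± 0.41 (SE; limma adjusted p = 0.705), with a 95% interval of -0.49 to 1.33, and it was -0.07 without FORKO replicate 1. Of 12 other Rhox genes 3 had a probe set, and Rhox6, Rhox9 and Rhox13 read at most 9.9 on any array.

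Cst9, which encodes testatin, a cystatin made by early Sertoli cells, was dim. It read 7.1, 20.6 and 16.8 in WT replicates 1, 2 and 3 and 20.0, 10.7 and 18.1 in the FORKO replicates of the same numbers. The groups overlapped, and the log2 change was 0.13, with a 95% interval of -0.67 to 0.94 when all probe sets were tested (limma adjusted p = 0.937). Of the other genes of its cystatin cluster on chromosome 2, Cst10, Cst11 and Cst13 lay below the filter, while 4 were tested. Of these, Cst12 read 261.9, 342.4 and 410.0 in WT and 1049.7, 376.2 and 648.5 in FORKO, and Cst3, the widely expressed cystatin C, read 1186.0, 1311.5 and 1246.3 and then 2355.4, 1377.6 and 1722.9. Cstdc2, the neighbour of Cst9 on the side of Cst3, read 2.1, 16.3 and 9.1 in WT and 78.8, 24.4 and 39.1 in FORKO. Cstdc1 read 28.2, 8.1 and 16.3 in WT and 43.4, 19.4 and 10.7 in FORKO. None of these passed limma's test (adjusted p = 0.813 for Cstdc1, 0.229 for Cst12, 0.253 for Cst3 and 0.0921 for Cstdc2), and in each the highest array was FORKO replicate 1. Cstdc1 and Cstdc2 came over the dim filter only through their FORKO arrays. Of 9 cystatin genes with a probe set, 3 were tested and none passed.

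Clu, which encodes clusterin, a major secreted protein of Sertoli cells that many other cells also make, was bright in both groups. The standing probe set read 2623.0, 1940.0 and 2768.6 in WT replicates 1, 2 and 3 and 3119.8, 2340.2 and 3130.2 in the FORKO replicates of the same numbers. The ranges overlapped, and replicate 2 was the lowest array in each group. On the log2 scale it differed by 0.23 ± 0.18 (SE; limma adjusted p = 0.611), with a 95% interval from 0.894-fold to 1.54-fold. The other 3 Clu probe sets changed by 0.11, 0.12 and 0.02 on the log2 scale with adjusted p of 0.789 to 0.967 in the same limma fit, so no probe set of this gene passed. Of the 10 protein-coding genes nearest to Clu, 7 were tested and 2 passed, where 2.14% of all genes did. Scara5 was higher in FORKO (log2 change 2.44, limma adjusted p = 0.00295) and Scara3 lower (-1.21, limma adjusted p = 0.0444). Among the tested neighbours of Foxl2, Sox9 and Dmrt1, 0 passed.

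Setting each gene against Foxl2 within an array cancels the scaling of that array, up to the pseudocount. The signal of Nxf3 was 2.43%, 1.80% and 2.85% of that of the Foxl2 probe set in WT replicates 1, 2 and 3 and 23.9%, 40.6% and 44.8% in FORKO replicates 1, 2 and 3; such a ratio follows both probe sets' sensitivity and is read only across arrays. Relative to Foxl2, Nxf3 rose by 3.50 on the log2 scale and Defb19 by 1.35, against 3.81 and 1.66 before, and neither group's range met the other's. Sox9 was higher by 0.56 relative to Foxl2, also without overlap, on its dim standing probe set; this difference was 0.90 with a pseudocount of 1 and 0.24 with 16, where the ranges overlapped (exact permutation p = 0.300). The exact two-sided permutation p was 0.1 for each of these 3 genes, the smallest that 3 against 3 arrays can give, so that this design cannot reach 0.05. For Rhox5 (0.11), Clu (-0.07), Cst9 (-0.17) and Dmrt1 (-0.19) the ranges overlapped, with an exact permutation p of 0.600 to 0.900. These ratios show unequal change of a gene and Foxl2 and do not show that either was constant. How many of all genes would not overlap relative to Foxl2 was not computed, so the 3 genes without overlap have no background to be set against.

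**Figure D2:**
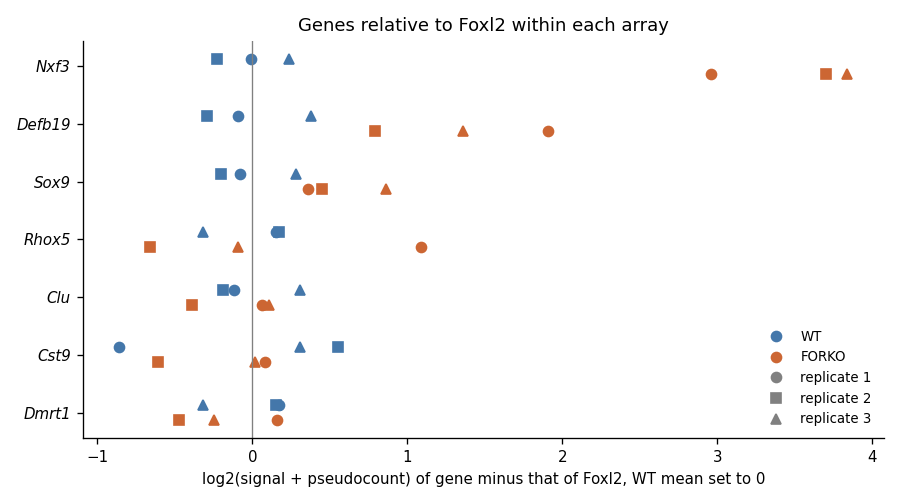
For 7 genes (rows), the difference between the gene's log2(signal + 5.73) and that of Foxl2 on each array, with the mean of the 3 WT arrays set to 0; colour gives the group and symbol the replicate number. The FORKO arrays lie at 2.96 to 3.84 for Nxf3, 0.79 to 1.91 for Defb19 and 0.36 to 0.86 for Sox9, to the right of all WT arrays, and among the WT arrays for the other 4 genes except FORKO replicate 1 of Rhox5 (1.09) and replicates 2 of Rhox5 (-0.66), Clu (-0.39) and Dmrt1 (-0.47).

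Other genes of the testis pathway were taken from a list of 23, which includes Sertoli factors, testis-determining signals and their targets; this list too was drawn up with earlier results known. Of these, 20 had a probe set, 7 were dim and 13 were tested: 2 rose, 0 fell and 11 did not pass. Of all genes tested, 1.30% rose and 0.839% fell. The median log2 change was 0.25, against -0.02 over all tested genes, with 9 positive and 4 negative. Without FORKO replicate 1 that median of the list was 0.12. Amh, the hormone gene that SOX9 activates in Sertoli cells and that granulosa cells of growing follicles express, read 0.8 to 1.2 in WT and 0.9 to 1.1 in FORKO and was not tested. Signals this low do not show whether Amh RNA was absent or was missed by the probe set. Sox8 and Sox10, relatives of Sox9 that can act in its place, were dim at 0.7 to 2.4 and 2.9 to 13.1 in WT and 3.4 to 11.7 and 13.6 to 24.2 in FORKO.

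The genes that rose were Ptgds, the prostaglandin D synthase that SOX9 activates in the fetal testis, and Etv5, an ETS transcription factor of Sertoli cells. Ptgds read 30.7, 25.5 and 17.5 in WT, against 2465.1, 304.0 and 1123.1 on the FORKO arrays. Its log2 change was 5.00 with an SE of 0.59 (limma adjusted p = 0.00623), and it passed in all 6 fits with 1 array left out. Etv5 read 32.0, 34.7 and 38.9 in WT and 140.7, 91.7 and 79.2 in FORKO (log2 change 1.39 ± 0.23, SE; limma adjusted p = 0.0217), and it lost the call without any 1 of the WT arrays. Claudin 11, Cldn11, which seals the Sertoli cell barrier, and Aard, a gene of fetal Sertoli cells, were looked at after their values were seen. Cldn11 read 55.8, 33.0 and 36.0 in WT and 538.2, 126.7 and 106.0 in FORKO, and Aard 341.8, 234.0 and 264.7 and then 1625.6, 559.6 and 623.8. In both genes the groups did not overlap, as in 4 of the 13 tested genes of this list and 22.6% of all genes tested. FORKO replicate 1 was the highest in both, but they did not pass (limma adjusted p = 0.0821 and 0.0677). With the replicate number as a block in limma both passed (adjusted p = 0.0197 and 0.0156), so that 4 of the 13 did, where 3.98% of all genes passed. Without FORKO replicate 1 there were 6 calls, all higher (Ptgds, Etv5, Gdnf, Cldn11, Aard and Vnn1), where 4.80% of all genes passed; without WT replicate 1, 2 or 3 Ptgds alone passed.

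Signals that act with Foxl2 in the ovary were not uniformly lower. Of 18 tested genes of ovary and granulosa identity, 1 fell, 0 rose and 17 did not pass, with a median log2 change of -0.05. Without FORKO replicate 1 that median was 0.15, against 0.12 for the testis list. Of all genes tested in the main fit, 1.30% rose and 0.839% fell. Wnt4, the Wnt signal that opposes the testis pathway, went from 1651 ± 424 down to 589 ± 330, a log2 change of -1.58 (limma adjusted p = 0.0492). It read 1296.5, 2121.3 and 1535.5 in WT and 969.4, 384.3 and 412.7 in FORKO, with no overlap. With the replicate block it did not pass (adjusted p = 0.0559), whereas Nr5a2 and Amhr2 did in that limma fit (adjusted p = 0.0421 and 0.0346), the first lower and the second higher. Rspo1, the R-spondin that acts with Wnt4, read 22.2, 37.8 and 19.0 in WT and 41.3, 47.5 and 46.0 in FORKO, without overlap, and did not pass (limma adjusted p = 0.239). The groups did not overlap in 6 of the 18 tested genes of this list, Wnt4 and Rspo1 among them, against 22.6% of all genes tested. Without FORKO replicate 1 there were 4 calls, Esr2 and Foxo1 higher and Wnt4 and Nr5a2 lower, where 4.80% of all genes passed. Without FORKO replicate 2 Amhr2 alone of this list passed, and without FORKO replicate 3 Nr5a2 alone. Without any 1 of the WT arrays there were 0 calls, in fits where 62 to 112 probe sets of any gene passed, against 372 in the main fit. Wnt4 thus passed in 1 of the 6 fits with 1 array left out. In the fit of probe sets of any signal it did not pass (limma adjusted p = 0.0839).

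**Figure D3:**
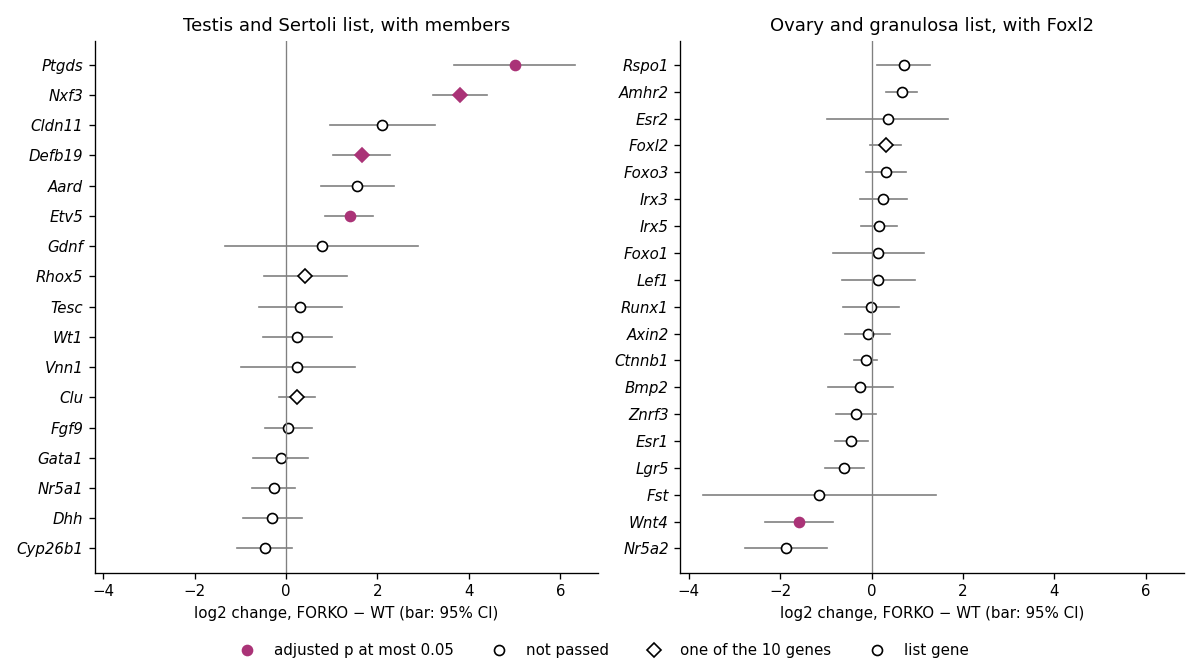
Log2 change, FORKO minus WT, with its 95% interval (bars) for tested genes of the testis and Sertoli list with 4 of the Sertoli-type genes (left) and of the ovary and granulosa list with Foxl2 (right); filled symbols passed at an adjusted p of 0.05 in limma and diamonds are genes of the list of 10. Ptgds (5.00), Nxf3 (3.81), Defb19 (1.66) and Etv5 (1.39) passed on the left and Wnt4 (-1.58) on the right, while the interval of Foxl2 (0.31) includes 0.

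Markers of other cell types moved with the groups or with FORKO replicate 1, and their part in the results above was not tested. Of 10 tested markers of oviduct, rete and surface epithelium all had a positive change, and Krt8 and Krt18 rose, where 1.30% of all genes did. Wfdc2 and Msln among them, with WT means of 9.25 and 19.6, came over the dim filter only through their FORKO arrays. The summed signal of the 12 measured was 901 to 1101 in WT and 2781, 1707 and 1793 on the FORKO arrays. FORKO replicate 1 was highest, as it was for Defb19. None of these epithelial markers passed without any 1 of the WT arrays or without FORKO replicate 3. In those fits 62 to 143 probe sets of any gene passed, against 372 in the main fit. Without FORKO replicate 1, 4 of these epithelial markers passed, where 4.80% of all genes did. Without FORKO replicate 2 Krt8 alone of them passed. The 8 macrophage markers, of which 0 passed, summed to 2374 to 2729 in WT and 5095, 2294 and 2999 in FORKO; with the replicate block Cd14 passed, higher in FORKO (limma adjusted p = 0.0298). Of the 9 tested granulosa markers Fshr fell, 0 rose and 8 did not pass. Fshr is the deleted gene itself and came over the dim filter only through its WT arrays, so its fall says nothing about granulosa cells. The 10 granulosa markers with a probe set summed to 16874 to 21501 in WT and 9386, 19922 and 20530 in FORKO. With the replicate block Kitl passed too, higher in FORKO (limma adjusted p = 0.0423), beside Nr5a2 and Amhr2, which the ovary list shares. Foxl2 was within 52.8 units on the 3 FORKO arrays, between which that granulosa sum differed. On FORKO replicate 1 Kitl and Amhr2 lay above all WT arrays and the other tested granulosa markers below them. The sum is therefore no measure of granulosa cell number, and its relation to Foxl2 was not tested.

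Oocyte markers summed to 1043 to 1251 in WT and 400, 588 and 621 in FORKO. Of the 7 tested, 3 fell (Zp2, Oosp1 and Zar1), where 0.839% of all genes did. Without WT replicate 1 or 2 only Oosp1 passed. Of 5 theca, Leydig and interstitial markers none passed; their sum was 12455 to 13049 in WT and 9503 to 10424 in FORKO, and 3 of the 5 had a negative change. Hsd17b3, which makes testosterone in Leydig cells, read 7.9 to 9.7 in WT and 49.8, 16.4 and 35.1 in FORKO (limma adjusted p = 0.0989). It came over the dim filter only through its FORKO arrays, so its p is a description. In the fit of probe sets of any signal its limma adjusted p was 0.181. With the filter and without FORKO replicate 2, Hsd17b3 passed. Star, the cholesterol carrier of steroid synthesis, read 742.4, 1977.4 and 1263.4 in WT and 543.0, 804.3 and 681.8 in FORKO (log2 change -0.87; limma adjusted p = 0.227, and 0.0418 with the replicate block). All 8 male germ cell markers, such as the protamine genes Prm1 and Prm2, lay below the filter, with a sum of 64.6 to 79.0 in WT and 39.5 to 53.7 in FORKO. No marker of any of these lists was at 0 on any array.

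The genes whose pattern was most like each tested gene were ranked by Pearson's r of log2 signals over the 6 arrays, among 10840 named genes; with so few arrays a high r is easily reached, and it is given as a description. Nearest to Nxf3 were Lpin2 (r = 0.996), Hsd17b11 (0.991) and Tmie (0.990). Hsd17b11, a hydroxysteroid dehydrogenase, read 1450.8, 1321.2 and 1347.4 in WT and 2521.7, 2804.9 and 2553.8 in FORKO, a change of 0.93 on the log2 scale (limma adjusted p = 0.00987), far smaller than that of Nxf3. Nearest to Defb19 were Tcf23 (0.998), Gpm6a (0.996) and Chn2 (0.996). Tcf23, a basic helix-loop-helix factor, read 47.2, 26.7 and 53.0 in WT and 232.3, 110.4 and 144.3 in FORKO (log2 change 1.79; limma adjusted p = 0.0234), and Gpm6a, a membrane glycoprotein gene, rose by 1.22.

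Nearest to Foxl2 were Trit1 (r = 0.986), Aftph (0.978) and Vwa1 (0.975), none of which passed limma's test (adjusted p = 0.297 to 0.784). For Rhox5 they were Cd3g (0.996), Vps37a (0.988) and Taf5l (0.986). Cd3g, a T cell receptor component, read 26.7, 17.7 and 13.4 in WT and 57.3, 14.6 and 21.5 in FORKO, so that FORKO replicate 1 was the highest array for it as for Rhox5. For Clu they were Hyi (0.988), Atp8b4 (0.985) and Frmd4b (0.984).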

How the data were processed

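Per the submitters' processing notes the authors deposited MAS5 values, a linear intensity for each probe set; how MAS5 was scaled, and its detection calls, are not given in the labels or notes used here. The 6 arrays were brought to a common mean, taken with 2% trimmed from either tail, by factors of 0.895 to 1.09. A pseudocount of 5.73, the 25th percentile of all arrays together, was added before log2. After removal of 64 control probe sets, those were kept that had a mean scaled signal of at least 20.4, the median of all means. The 22506 that remained were tested two-sided in limma 3.58.1 (R 4.3.3), with lmFit and trended eBayes and Benjamini-Hochberg adjustment at 0.05; the fit was checked on simulated data. Ratios to Foxl2 were tested with an exact permutation test. Figures were drawn with matplotlib 3.10.9.

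The members, gene lists and tests were chosen with earlier results of these data known. Named genes were the 10 of the list, Fshr, for every list as many as 4 passing genes by size of change (with no passing gene, the top 2), and the 3 genes most like each member; others are said to have been chosen after their values were seen, or stand beside a result for the levels of a list. Gene names came from the platform annotation (34945 probe sets with 1 symbol, 932 with several, 9160 with none listed), and gene neighbours from the GRCm38.p6 gene table. The labels speak of biological replicates without saying how many mice went into each, and p-values therefore reflect only how far these samples vary; the number of arrays limits the precision. No 2 arrays held identical values.

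Replicate numbers 1 to 3 occur in both groups, and the labels do not tie them to a litter or day. Arrays of equal number deviated from their group means in part together (correlations of 0.195, 0.134 and 0.358). Arrays of unequal number were not compared in this way, so these values do not settle whether samples were paired. The main fit has no block, and the fit with the replicate block is given beside a result where it changes a call. Alternatives covered normalization, pseudocount, dim filter, variance model, replicate block, each array left out and the other probe sets of a gene.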

Additional observations from a re-analysis of the deposited data

How the results depend on the processing

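The count of probe sets that passed, 372, was 221 without the dim filter, 691 with the replicate block, and 62 to 864 with 1 array left out; in the other 8 alternatives it stayed within 1.5 times. The count of genes of the list that passed, 2, stayed 2 under the normalizations, pseudocounts, dim filters, variance models and the replicate block, and was 1 to 2 with 1 array left out, Defb19 losing its call without any 1 WT array or FORKO replicate 3. Fewer arrays give fewer residual degrees of freedom; the cause of each loss was not tested. The replicate block changed the call of no gene of the list (adjusted p = 0.00214 for Nxf3, 0.00636 for Defb19 and 0.256 for Foxl2), and the calls it changed in the gene lists are given beside them.

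Signs turned only for differences that had not passed. With 1 array left out in turn, the change of Rhox5 ran from -0.07 (without FORKO replicate 1) to 0.78. That of the dim gene Dmrt1 ran from -0.10 to 0.32 and that of Cst9 from -0.18 to 0.34. Relative to Foxl2 those ranges were -0.38 to 0.50 for Rhox5, -0.60 to 0.10 for Cst9 and -0.17 to 0.09 for Clu; the cause was not tested. Sox9, Dmrt1 and Cst9 were too dim for the main test, and their differences are bounded by signals near the pseudocount.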
